A study of Mus musculus with 135 samples.

Results

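The genes examined here are 6 genes of the major histocompatibility complex (MHC) class II pathway, H2-Aa, H2-Ab1, H2-Eb1, Cd74, H2-DMa and H2-DMb1, together with Ciita, which encodes their coactivator. They are 7 of the 15181 genes counted in single haematopoietic stem cells (HSCs). These genes were chosen by their measured levels in the same cells, so their difference between ages is given as a description and without a test. HSCs with the surface phenotype LSK CD150+CD48- were sorted from the bone marrow of C57BL/6 mice carrying a Vwf-eGFP reporter, which both ages shared. The young mouse was 2 to 3 months old and the old mouse 20 to 25 months old, and no treatment of either is given. Each age was 1 mouse, so age, mouse and capture run cannot be told apart, and the cells of an age are not replicates of it. After the limits on cell quality of the study, 52 young and 62 old cells remained of 135 cells in all.

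MHC class II molecules are pairs of an alpha and a beta chain that display peptides from endocytosed proteins to CD4+ T cells. The invariant chain, encoded by Cd74, guides the pair to endosomes and blocks its groove, and the DM heterodimer then exchanges the remaining fragment of the invariant chain for antigenic peptides. Ciita does not bind DNA itself but is recruited by the RFX, CREB and NF-Y factors that sit on the conserved boxes of class II promoters, and interferon gamma is its best known inducer. Class II molecules are best known from B cells, dendritic cells and macrophages.

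The 3 member promoters that held a spaced pair of the letters GNAAC (N is any base) and GATTGG are shown first, because recruitment of Ciita is known to depend on such paired boxes. GATTGG holds the reverse complement of CCAAT, the core of NF-Y sites. Both words were searched on both strands of the RefSeq promoters (GRCm38.p6), each reaching from 250 bases before to 50 bases after a transcription start, and the pair was counted where their first bases lay 30 to 34 bases apart. The words and the distance were chosen after the promoters of the members had been seen. Capitals mark the 2 words, and each run is written 5′ to 3′ on the strand of the gene with 10 bases on either side.
H2-Aa, chr17:34287857-34287914, minus strand: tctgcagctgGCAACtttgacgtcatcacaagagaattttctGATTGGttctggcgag
H2-Eb1, chr17:34305766-34305822, plus strand: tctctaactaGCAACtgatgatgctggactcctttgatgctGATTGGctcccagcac
H2-DMb1, chr17:34153087-34153144, plus strand: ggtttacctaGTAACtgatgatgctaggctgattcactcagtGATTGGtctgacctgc
The first bases of the words were 32 bases apart in H2-Aa and H2-DMb1 and 31 bases apart in H2-Eb1, and GATTGG began 49, 62 and 60 bases before the start of H2-Aa, H2-DMb1 and H2-Eb1. Alone, GNAAC stood in 84.8% and GATTGG in 16.1% of 32851 promoters. The spaced pair stood in 112 of them, or 0.341%.

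Of the other class II genes, the promoters of H2-Oa, a chain of the DO heterodimer that inhibits DM, and of H2-Eb2, a further beta chain gene, held the pair as well. They are shown because they carry the same words, and their levels are given below with the other genes of the pathway.
H2-Oa, chr17:34092293-34092350, plus strand: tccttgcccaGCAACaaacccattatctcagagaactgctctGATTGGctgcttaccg
H2-Eb2, chr17:34325533-34325589, plus strand: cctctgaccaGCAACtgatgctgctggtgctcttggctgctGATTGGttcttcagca
Neither of the 2 promoters of H2-DMa in the table held the pair, nor did those of H2-DMb2 and H2-Ob, which says only that these letters at this distance are not in these windows. The promoters of H2-Ab1, Cd74 and Ciita were not analysed here.

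The 4 genes of the displayed molecule, H2-Aa, H2-Ab1, H2-Eb1 and Cd74, were expressed in 2 to 8 of the 52 young cells and in 27 to 39 of the 62 old cells. H2-DMa and H2-DMb1, which load peptides onto it, were expressed in 25 and 12 young cells and were higher in the old cells. Ciita was expressed in 4 young and 3 old cells. Levels are on the scale log2(CPM + 1), where CPM is the number of reads of a gene per 1000000 reads counted in the same cell, and expressing cells are those with a level above 2. The mean level was at least 2-fold higher in old cells for 6 of the 7 genes, where 3.91% of the 15014 genes with a read were at least 2-fold higher and 4.49% at least 2-fold lower. Nothing is read from this count, since the genes were chosen on that difference. The median difference, old minus young, was 2.61 over the 7 genes and -0.02 over all genes. Intervals given with shares of cells are 95% exact Clopper-Pearson intervals on the number of cells. They cover the sampling of cells only, and not differences between mice or capture runs. The reads carried no molecular identifiers.

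**Figure D1:**
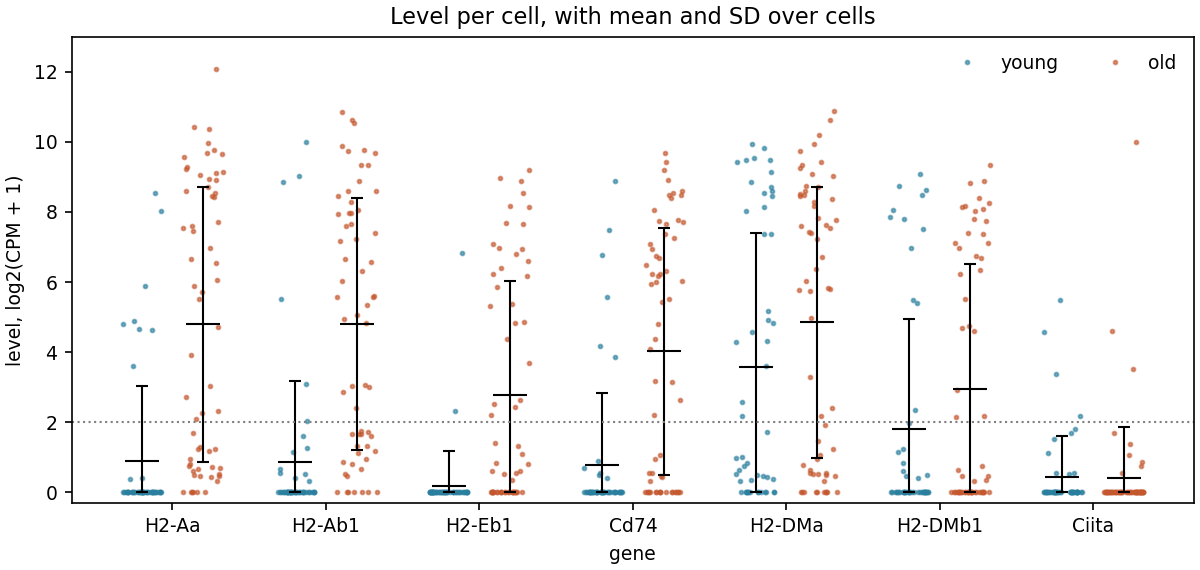
Level, log2(CPM + 1), of each gene in every young (blue) and old (orange) cell. Each point is 1 cell, the black marks are the mean and SD over cells with the lower bar stopped at 0, and the dotted line is the limit of 2 above which a cell counted as expressing. H2-Aa, H2-Ab1, H2-Eb1 and Cd74 were at 0 in most young cells, whereas Ciita was at or near 0 in most cells of both ages.

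H2-Aa encodes the alpha chain of the I-A molecule. In the 52 young cells its level ranged from 0 to 8.53 (median 0), and over the 62 old cells from 0 to 12.08 (median 5.12). The mean level was 0.88 ± 2.15 in young and 4.79 ± 3.92 in old cells (SD over 52 and 62 cells), a difference of 3.91, at place 13 of 15014 genes when ordered by that difference. The ranges overlapped.

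H2-Aa was expressed in 8 young cells, 15.4% (6.88 to 28.1), and in 38 old cells, 61.3% (48.1 to 73.4). The 8 young cells, named by their well on the chip, were G7 at 8.53, E7 at 8.04, G5 at 5.88, C12 at 4.89, B3 at 4.80, A7 at 4.67, H12 at 4.64 and D6 at 3.60. Among expressing cells the median level was 4.85 in young and 8.44 in old cells, so the gene was higher in the old cells on both counts. A further 18 old cells held H2-Aa reads below the limit, at most 6 in a cell, against 2 young cells with 1 read each, so that 56 old and 10 young cells had any read. The origin of these few reads per cell was not tested. Old cell E10 held 28.6% of the 40438 old reads, and young cell G7 held 53.1% of the 2420 young reads.

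H2-Ab1 encodes the beta chain that pairs with H2-Aa. Its level ranged from 0 to 9.99 (median 0) in young cells and from 0 to 10.86 with a median of 5.20 in old cells, and the means were 0.87 and 4.80. It was expressed in 6 young cells, 11.5% (4.35 to 23.4), and in 39 old cells, 62.9% (49.7 to 74.8). The young cells were D6 at 9.99, A9 at 9.03, G5 at 8.86, E7 at 5.51, D1 at 3.09 and F1 at 2.03. In expressing cells the median level was 7.19 in young and 7.61 in old cells. For this gene the ages differed chiefly in the number of cells, and the highest young cells lay within the range of the old ones.

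H2-Eb1, the beta chain gene of the I-E molecule, was expressed in the fewest young cells of the 6 class II genes, and in as many old cells as H2-DMb1. C57BL/6 mice do not display I-E because they lack a functional alpha chain for it. Its level ranged from 0 to 6.84 in young and from 0 to 9.21 in old cells, with medians of 0 and 0.81 and means of 0.18 and 2.79. Of the 52 young cells 2 had any H2-Eb1 read, B3 at 6.84 and D6 at 2.31, which is 3.85% (0.469 to 13.2), and B3 alone held 96.5% of the 455 young reads. Of the old cells 27 expressed it, 43.5% (31 to 56.7), at a median level of 6.40.

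Cd74, the invariant chain, ranged from 0 to 8.88 (median 0) in young cells and from 0 to 9.68 with a median of 4.59 in old cells, and the means were 0.77 and 4.03. It was expressed in 6 young cells, 11.5%, and in 37 old cells, 59.7% (46.4 to 71.9). The young cells were D6 at 8.88, E7 at 7.47, A3 at 6.78, C3 at 5.58, E1 at 4.19 and F9 at 3.87. Only D6 and E7 among them also expressed both I-A chains. In expressing cells the median level was 6.18 in young and 6.75 in old cells.

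H2-DMa and H2-DMb1 encode the alpha and beta chains of the DM exchanger. H2-DMa ranged from 0 to 9.93 (median 1.36) in young cells and from 0 to 10.89 with a median of 5.83 in old cells, and the means were 3.58 and 4.85. It was expressed in 25 young cells, 48.1% (34 to 62.4), and in 38 old cells, 61.3%, and these intervals overlap. The median level of expressing cells was 8.14 in young and 8.0 in old cells, so the cells that had H2-DMa had it at a similar level at both ages.

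H2-DMb1 ranged from 0 to 9.08 in young and from 0 to 9.35 in old cells, with medians of 0 and 0.40 and means of 1.80 and 2.96. It was expressed in 12 young cells, 23.1% (12.5 to 36.8), and in 27 old cells, 43.5%. The median level in its expressing cells was 7.83 in young and 7.11 in old cells. For both DM genes the difference depended on how levels were averaged. The difference of mean levels was 1.27 for H2-DMa and 1.16 for H2-DMb1, but the log2 ratio of CPM summed over cells was 0.57 and 0.56, below a 2-fold difference. Of the 51-base windows of the H2-DMb1 transcript 26.8% also stood in H2-DMb2, its neighbouring paralogue, so part of their reads could have been assigned to either gene. No such window was shared by H2-Aa, H2-Ab1, H2-Eb1, Cd74 or H2-DMa.

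Ciita, the coactivator, was at 0 reads in 41 young and 53 old cells, and its median level was 0 at both ages. Its mean level was 0.45 in young and 0.39 in old cells, a difference of -0.05. It was expressed in 4 young cells, 7.69% (2.14 to 18.5), and in 3 old cells, 4.84% (1.01 to 13.5). The young cells were B8 with 31 reads, D6 with 93, C12 with 20 and A4 with 1, and the old cells were G1 with 2592, G10 with 78 and H1 with 3. The sums were 167 young and 2684 old reads, but old cell G1 held 96.6% of the latter, and without it 92 remained. The log2 ratio of summed CPM, 3.34, thus rested on 1 cell. Of the 51-base windows of the Ciita transcript, 0.235% were shared with Dexi, the neighbouring gene.

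Levels of different genes were compared per length, as the mean of log2(CPM per kilobase of transcript + 1). In old cells H2-Aa (4.67 ± 3.87, SD over 62 cells), H2-Ab1 (4.60 ± 3.52), H2-DMa (4.36 ± 3.60) and Cd74 (3.73 ± 3.32) led, followed by H2-DMb1 (2.74 ± 3.33), H2-Eb1 (2.44 ± 2.95) and Ciita (0.20 ± 0.995). Each neighbour in this order differed from the next by less than the SD over cells, apart from the step down to Ciita, which was wider than the SD of Ciita but not that of H2-Eb1. In young cells the order was H2-DMa (3.19), H2-DMb1 (1.66), H2-Aa (0.85), H2-Ab1 (0.82), Cd74 (0.70), Ciita (0.18) and H2-Eb1 (0.15). The DM genes thus led the chains they serve in young cells, and the I-A chains stood beside H2-DMa in old cells.

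The counts of expressing cells did not rest on the limits on cell quality. Over all 61 young and 74 old cells H2-Aa was expressed in 8 and 47 cells, H2-Ab1 in 8 and 45, H2-Eb1 in 2 and 30, Cd74 in 6 and 42, H2-DMa in 28 and 42, H2-DMb1 in 13 and 31, and Ciita in 4 and 3. Depth also differed between ages, with 273236 to 5688706 counted reads per young cell and 276316 to 4086659 per old cell. When every cell was thinned to 250000 reads, H2-Aa was expressed in 8 young and 41 old cells, H2-Eb1 in 1 and 30, Cd74 in 7 and 37, and Ciita in 6 and 4. The young cells were the deeper ones by the median, 2798990 against 2116024 reads, and the order of the ages was the same at equal depth for these 4 genes.

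The genes were then followed together in single cells. Old cells commonly expressed several of the 6 class II genes at once, and young cells seldom did. The genes were chosen on their difference between ages, and counts of cells with several genes rise with the share of each gene. The contrast between ages in these counts is therefore a description and no separate result. At least 3 of the 6 were expressed in 4 young cells, 7.69% (2.14 to 18.5), and in 41 old cells, 66.1% (53 to 77.7). All 6 were expressed in 9 old cells and in 0 of 52 young cells, with an interval reaching up to 6.85%. None of the 6 was expressed in 17 young and 4 old cells. H2-Aa, H2-Ab1 and Cd74, the parts of the I-A molecule and its chaperone, were expressed together in 2 young cells, 3.85% (0.469 to 13.2), and in 27 old cells, 43.5% (31 to 56.7).

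**Figure D2:**
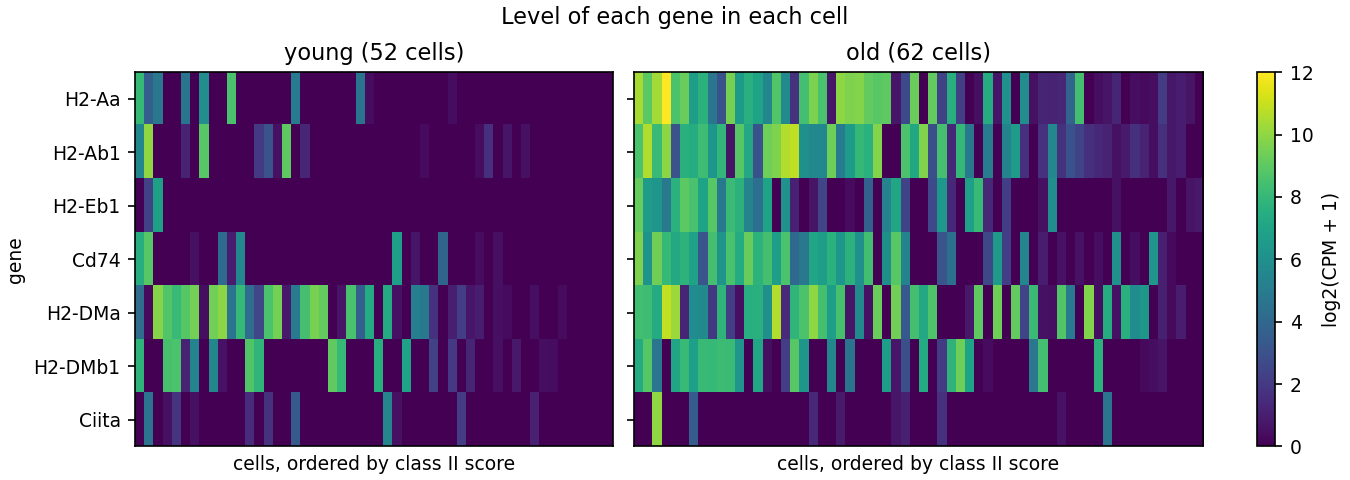
Level, log2(CPM + 1), of the 7 genes (rows) in 52 young and 62 old cells (columns), with the cells of each age ordered from left to right by falling class II score, the mean level of the 6 class II genes. The left columns of the old cells are high in most rows at once, the young cells are high mainly in H2-DMa, and the row of Ciita is nearly empty at both ages.

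**Figure D3:**
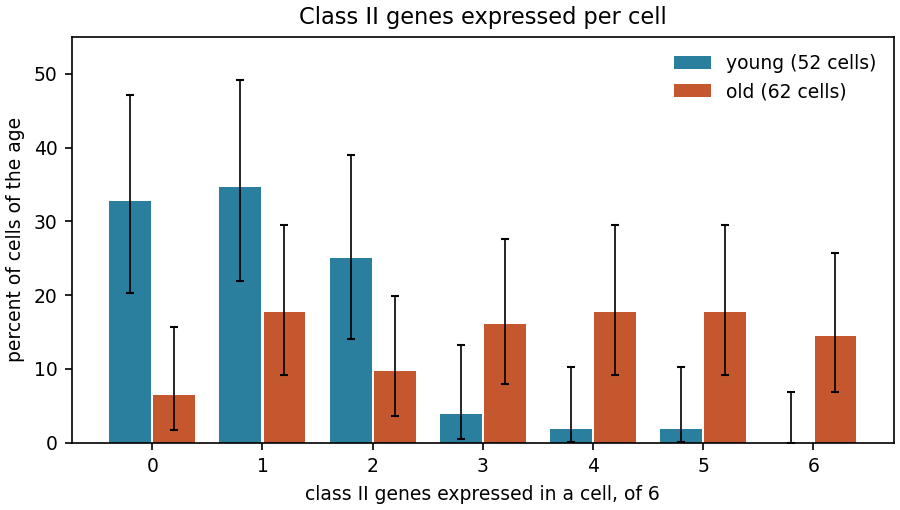
Percent of the cells of each age (vertical axis) by the number of the 6 class II genes expressed in a cell (horizontal axis), with 95% exact Clopper-Pearson intervals. Young cells fill 0 to 2 genes and old cells spread up to 6, with 41 old and 4 young cells at 3 or more.

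The DM genes stood apart from the other class II genes in many young cells. In young cells 20 of 52 expressed H2-DMa or H2-DMb1 without any of H2-Aa, H2-Ab1, H2-Eb1 and Cd74, and 10 expressed genes of both kinds. In old cells 41 of 62 expressed genes of both kinds, 9 expressed a DM gene only and 8 a gene of the other kind only. H2-DMa and H2-DMb1 did not keep company as the I-A chains did. Cells with H2-DMa and H2-DMb2, the second DM beta chain gene, were not counted together. H2-DMa and H2-DMb1 were expressed together in 7 young and 15 old cells, and in old cells H2-DMb1 was expressed in 15 of 38 cells with H2-DMa and in 12 of 24 cells without it.

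Pairs were described within the old cells, where most genes had enough expressing cells. Of the 38 old cells that expressed H2-Aa, 33 expressed its partner H2-Ab1, 86.8% (71.9 to 95.6), against 6 of the 24 cells without H2-Aa, 25.0% (9.77 to 46.7). Cd74 was expressed in 31 of the 38 cells, 81.6%, and in 6 of the 24. H2-Eb1 was expressed in 23 of the 38, 60.5%, and in 4 of the 24. H2-DMa was expressed in 24 of the 38, 63.2%, and in 14 of the 24, 58.3%, so it was about as frequent with H2-Aa as without. H2-Eb1 lay mostly within the cells with Cd74, in 23 of its 27 cells.

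Over the 62 old cells, which share 1 mouse and 1 capture run and differ in depth, Pearson's r of the levels was 0.57 for H2-Aa with Cd74, 0.53 for H2-Eb1 with Cd74, 0.44 for H2-Aa with H2-Ab1 and 0.42 for H2-Eb1 with H2-DMb1. At the other end stood H2-Eb1 with H2-DMa at -0.01 and H2-DMa with H2-DMb1 at -0.12. The median of the 15 pairs was 0.28 in old and 0.11 in young cells, and 10 old and 4 young pairs were above 0.2. Taken only over the old cells that expressed both genes of a pair, r was lower than over all old cells for 10 of the 15 pairs and higher for 5, and its median was 0.16. It was -0.03 for H2-Aa with H2-Ab1 (33 cells) and 0.35 for H2-Aa with Cd74 (31 cells), but 0.44 for H2-Eb1 with H2-DMb1 (17 cells) and 0.52 for H2-Aa with H2-DMa (24 cells). Cd74 was the gene most like the mean of the other class II genes in old cells, with r = 0.62, ahead of H2-Aa and H2-Ab1 (both 0.52) and H2-Eb1 (0.49), while H2-DMb1 (0.27) and H2-DMa (0.11) were the least like it.

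**Figure D4:**
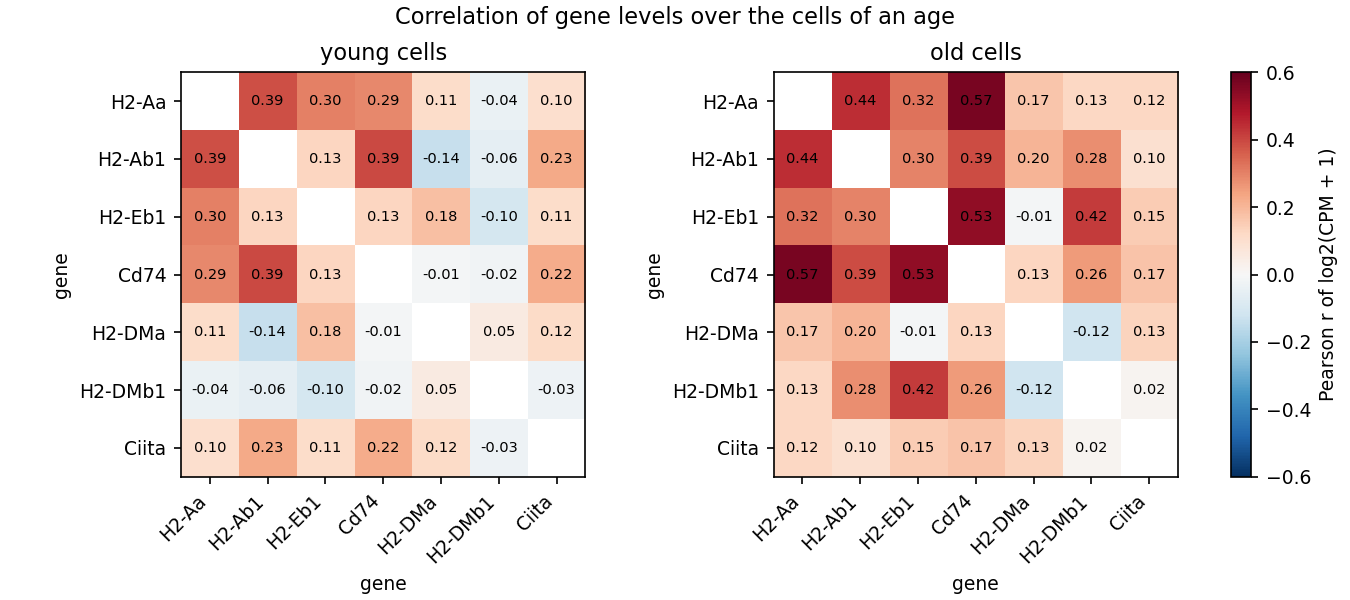
Pearson's r of log2(CPM + 1) for each pair of the 7 genes over 52 young cells (left) and 62 old cells (right), from blue (negative) to red (positive), with the value printed in each field. In old cells the highest values are those of Cd74 with H2-Aa (0.57) and with H2-Eb1 (0.53), H2-Aa with H2-Ab1 (0.44) and H2-Eb1 with H2-DMb1 (0.42), and the column of Ciita is pale, between 0.02 and 0.17.

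Class II expression was next compared between cells with and without Ciita. Most old cells with class II transcripts had no Ciita read. Of the 53 old cells without a Ciita read, 34 expressed at least 3 of the 6 class II genes, 16 at least 5 and 6 all 6. Old cell B5, with the highest class II score of all, 8.94, had none, and its 6 genes were between 7.37 and 10.44. By the sampling of reads alone, a count of 0 allows up to 3 reads. In these 53 cells that is 0.734 to 10.9 CPM with a median of 1.37, so low Ciita levels were not detectable at this depth. Transcripts lost before sequencing are not covered by this bound and were not measured, so a cell without a Ciita read could have held more.

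Cells with Ciita were few. At least 1 Ciita read was found in 7 of the 41 old cells that expressed 3 or more class II genes, 17.1% (7.15 to 32.1), and in 2 of the 21 others, 9.52% (1.17 to 30.4), and these intervals overlap. Of the 9 old cells with all 6 genes, 3 had a Ciita read. The class II score, the mean level of the 6 genes, averaged 4.58 over the 9 old cells with a Ciita read and 3.94 over the 53 without. With the limit of 2 for Ciita, it was 1.54, 7.02 and 7.69 in the 3 old cells and averaged 3.97 over the other 59, where it ranged from 0.14 to 8.94. The mean difference was 1.45 under that limit and 0.63 with any read, and each of the 3 cells lay within the range of the cells without Ciita.

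These 3 old cells differed from each other. G1, with a Ciita level of 10.01, had H2-Aa at 10.35, Cd74 at 9.41, H2-Ab1 at 8.07, H2-DMa at 7.39, H2-Eb1 at 6.24 and H2-DMb1 at 4.70. H1, with Ciita at 3.51 from 3 reads in one of the shallowest cells (289282 reads), also expressed all 6. G10, with Ciita at 4.60, expressed H2-DMa at 7.44 but no other class II gene, and its H2-Eb1, Cd74 and H2-DMb1 were at 0. Its H2-Aa and H2-Ab1 were below the limit, at 0.68 from 2 reads and 1.13 from 4 reads. Ciita above the limit was thus found with all 6 class II genes in G1 and H1, and with H2-DMa alone in 1 cell, G10.

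Gene by gene, reads of H2-Aa were found in 9 of 9 old cells with a Ciita read and in 47 of 53 without, those of H2-Ab1 in 8 and 47, of Cd74 in 8 and 36, of H2-Eb1 in 6 and 31, of H2-DMa in 8 and 44, and of H2-DMb1 in 5 and 28. The share with H2-Ab1 reads was thus nearly the same, 88.9% and 88.7%. H2-Ab1 reads were found in 55 of all 62 old cells, 16 of them below the limit. Shares this near to all cells could hardly differ and cannot show whether H2-Ab1 depends on Ciita. The mean H2-DMb1 level was lower in the cells with a Ciita read, 1.92 against 3.14. The median depth was 1768032 reads in the 9 cells and 2182284 in the 53. Among the young cells H2-DMa reads were found in 11 of 11 cells with a Ciita read and in 27 of 41 without, whereas H2-Aa reads were found in 2 and 8. The young score averaged 1.92 over the 11 cells and 1.19 over the 41. Over cells, r of Ciita with the 6 genes was 0.02 to 0.17 in old and -0.03 to 0.23 in young cells.

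**Figure D5:**
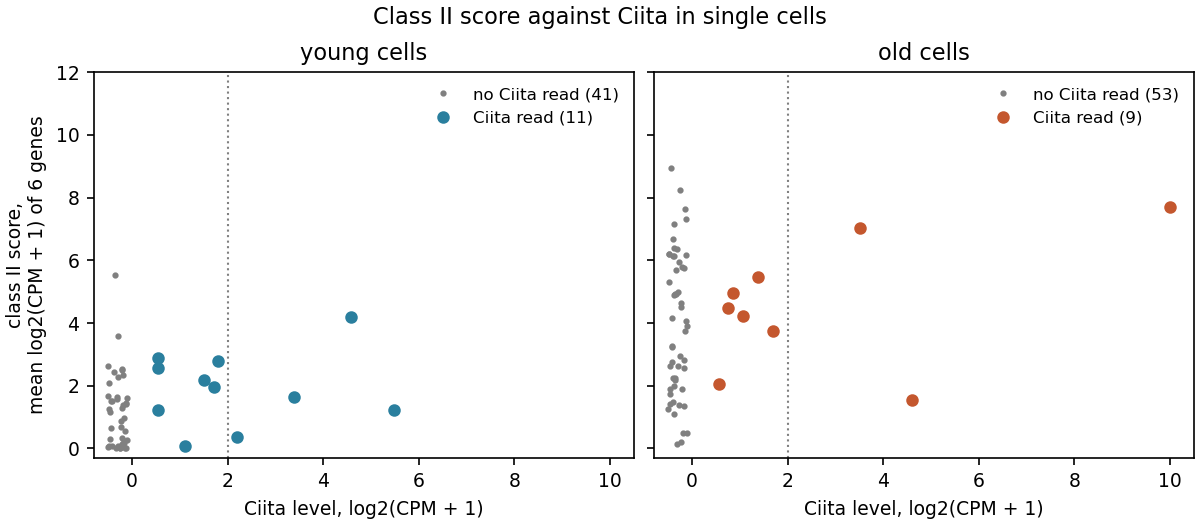
Class II score, the mean log2(CPM + 1) of the 6 class II genes (vertical axis), against the Ciita level, log2(CPM + 1) (horizontal axis), in young (left) and old (right) cells. Grey points are cells without a Ciita read, spread sideways below 0 only to part them, coloured points are cells with at least 1 read, and the dotted line is the limit of 2. Old cells without a Ciita read cover scores from 0.14 to 8.94, above and below the cells with one.

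The young cells with several class II genes were few enough to describe singly. B3 expressed H2-DMa, H2-Eb1 and H2-Aa, D6 expressed H2-Ab1, Cd74, H2-Aa and H2-Eb1, E7 expressed all but H2-Eb1, and F1 expressed H2-DMb1, H2-DMa and H2-Ab1. All of them expressed the stem and progenitor cell genes Kit, Hlf, Meis1 and Gata2. E7 also held genes of other lineages, with the cytokine receptor gene Flt3 at 9.60, the B cell receptor gene Cd79b at 8.26, the T cell kinase gene Lck at 7.06 and the cytotoxic granule gene Nkg7 at 5.75. B3 held Cd68, a lysosomal gene of macrophages, at 10.37, and F1 held the lysozyme gene Lyz2 at 8.26. D6 expressed no marker of the B cell, macrophage or T and NK cell lists. Of the dendritic cell list it held Tcf4 at 9.27 and reads assigned to Xcr1 at 4.87. Tcf4 was at 8.22 in B3, 4.38 in F1 and 4.09 in E7, and averaged 5.43 over all cells used. The genes given for B3, E7 and F1 are not all the markers they expressed. What these transcripts contributed to the class II counts was not tested.

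The labelled cell type was checked against its markers. Meis1 was expressed in every cell, Kit in 49 young and 61 old cells and Gata2 in 45 and 62, while transcripts of Slamf1, the gene for CD150, were found above the limit in 9 and 15 cells. Cd48, which the sort excluded, was expressed in 1 young and 0 old cells. Of 15 HSC markers 3 were at least 2-fold higher in old cells and 0 lower, where 3.91% and 4.49% of all genes were.

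Markers of the cell types that present antigen, and of T and NK cells, were read as lists. Listed names that were not among the counted genes, or had no read, were left out of the values. Of 15 B cell markers listed, 7 were in the table and 5 had a read. The 5 B cell markers with a read had a median difference of -0.14, 0 of them differed 2-fold, and their summed CPM ranged from 0.526 to 1118 in young and from 0 to 800.5 in old cells. Their mean level had r = -0.12 with the class II score over old cells. Vpreb1 and Vpreb3, parts of the surrogate light chain of B cell precursors, were at 0 reads in all cells used. Cd22 was expressed in 34 young and 37 old cells, at mean levels of 2.17 and 2.19, and Cd79b in 12 and 16. Blnk was expressed in 1 and 1 and Cr2 in 3 and 1, and Spib averaged 1.19 over all cells used. Of 15 dendritic cell markers listed, 9 had a read, of which 1 was at least 2-fold higher and 0 lower, the summed CPM ranged from 21 to 2262 in young and from 14.8 to 1762 in old cells, and r over old cells was 0.11. The higher one was Clec9a, a C-type lectin gene of dendritic cells, named after its values were seen, with mean levels of 0.14 in young and 1.14 in old cells. It was expressed in 1 young and 11 old cells and had reads in 2 and 20, and its r with the class II score over old cells was -0.04. Zbtb46, a factor of classical dendritic cells, was at 0 reads, and Flt3 was expressed in 5 young and 2 old cells. Reads assigned to Xcr1, a chemokine receptor gene, were above the limit in every cell of both ages, so whether they came from that gene is doubtful. Without Xcr1 the summed CPM of the list ranged from 0.453 to 2239 in young and from 0 to 1736 in old cells, and r over old cells was 0.08.

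Of 16 macrophage and monocyte marker names listed, 10 were among the counted genes, each with a read, and 0 differed 2-fold. The summed CPM ranged from 0.457 to 2025 in young and from 1.35 to 1724 in old cells. Their r with the score was 0.19 over old and -0.22 over young cells. The complement genes C1qa and C1qc were at 0 in old cells, while Lyz2 was expressed in 43 young and 43 old cells. Of 10 T and NK cell marker names listed, 7 were among the counted genes, each with a read, and 0 differed 2-fold. The summed CPM ranged from 0 to 481.4 in young and from 0 to 1359 in old cells. Cd3d was expressed in 16 young and 16 old cells, and Nkg7 and Lck averaged 1.65 and 1.08 over all cells used. Cd4 and Thy1 were at 0 in old cells. Klrb1c, a receptor gene of NK cells, went the other way and was named after its values were seen. It was at 0 reads in the 52 young cells, had reads in 20 and was expressed in 9 of the 62 old cells, and averaged 0.94 there, with r = -0.11 with the class II score over old cells. What cells of these types contributed was not tested beyond these values.

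The other genes of the pathway were read as lists. Their counts stand beside 3.91% of all 15014 genes at least 2-fold higher in old cells and 4.49% lower. Of the 4 further class II genes with a read, 0 differed 2-fold. H2-DMb2, the second DM beta chain gene, averaged 1.10 in young and 1.98 in old cells and was expressed in 11 and 22 of them. H2-Oa averaged 1.28 and 1.22, H2-Ob, the partner chain of DO, 0.41 and 0.10, and H2-Eb2 0.05 and 0.10. Of 13 listed names of genes that process the invariant chain and antigens, 11 were among the counted genes, each with a read. Of these 11 genes 3 were at least 2-fold higher and 0 lower, with a median difference of 0.09. They were the cathepsins Ctsd, with levels of 3.77 and 5.49, Ctsl, with 1.28 and 2.58, and Ctsz, with 1.36 and 2.60. Ctsb, a further cathepsin, averaged 5.70 and 5.66. Ctsl and Ctsz were named after their values were seen.

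Of 16 genes of class II promoter factors and the enzymes they recruit, 0 were at least 2-fold higher and 2 lower, with a median difference of -0.25. Rfxank, a subunit of RFX, was expressed in all 52 young and 62 old cells at levels of 5.29 and 5.17. Its partners were sparser. Rfx5 was expressed in 8 young and 13 old cells, at mean levels of 1.13 and 1.37, and Rfxap in 3 and 3. The lower genes were Nfya, a subunit of NF-Y, with levels of 2.89 and 1.82, and Ncoa3, an acetyltransferase coactivator, with 5.70 and 3.91. Rfx5, Rfxap and Nfya were named after their values were seen. The mean level of the list had r = -0.01 with the class II score over old cells.

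Of 16 listed inducers and repressors of Ciita 14 were among the counted genes, each with a read. Of these 14 genes 2 were at least 2-fold higher and 1 lower, with a median difference of 0.07. Irf1, a factor that interferon gamma induces, averaged 2.68 in young and 4.28 in old cells, and Ifngr1, a chain of the interferon gamma receptor, 3.71 and 4.80, and both were named after their values were seen. Irf2, the related factor, averaged 5.75 and 4.04. Jak1, the receptor's kinase, averaged 8.19 and 7.72. The mean level of this list had r = 0.31 with the class II score over young and 0.26 over old cells.

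Of 20 targets of interferon gamma 8 were at least 2-fold higher in old cells and 0 lower, where 3.91% and 4.49% of all genes were. By any amount 17 were higher and 3 lower, with a median difference of 0.93 against -0.02 over all genes. Cxcl9 and Cxcl10 were among the lower ones, at -0.02 and -0.11, and were named after their values were seen. Gbp7, a guanylate binding protein gene, averaged 5.99 in young and 8.09 in old cells. Tgtp1 and Tgtp2, T cell specific GTPase genes that are near copies of each other and whose reads are therefore uncertain, averaged 6.92 and 8.54, and 7.17 and 8.72. Iigp1, a GTPase gene of the same response, averaged 2.11 and 5.42 and was expressed in 15 young and 44 old cells, and it was named after its values were seen. Irf1 belongs to this list as well as to that of Ciita inducers. Within an age, r of the mean of the list with the class II score was 0.23 over young and 0.34 over old cells.

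The MHC class I genes, which all nucleated cells use, were abundant at both ages. Of 13 genes of class I and its peptide loading 1 was at least 2-fold higher and 1 lower. By any amount 10 were higher, and the median difference was 0.44 against -0.02 over all genes. B2m, the light chain of class I, averaged 11.38 in young and 11.91 in old cells, H2-K1, a heavy chain, 10.03 and 10.52, and H2-D1, another, 9.16 and 9.88, and B2m and H2-K1 were expressed in every cell. The mean of the list had r = 0.04 and 0.00 with the class II score over young and old cells. Of 8 listed costimulation genes, which T cells need beside class II, 6 were among the counted genes, each with a read, and 0 differed 2-fold.

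Over the 62 old cells the class II score had r = -0.20 with the logarithm of the counted reads and 0.18 with the number of genes expressed. Among 9064 genes ranked by their r with the score in old cells, H2-DMb2 was the most like it, with r = 0.50, and it also had r = 0.42 over the 52 young cells. St3gal1, a sialyltransferase gene, followed at 0.47 and Prune2 at 0.47, then Rit1 (0.46), Mgst2 (0.43), Rbbp7 (0.43), Ctps2 (0.43), Ate1 (0.42), Tc2n (0.42) and AI607873 (0.42). In young cells r was -0.23 for St3gal1 and -0.06 for Prune2, so H2-DMb2, whose reads can overlap those of H2-DMb1, was the one of these leading 3 with a like value at both ages. The lowest r in old cells was found for Micu3 (-0.45), Tpt1 (-0.39) and Ubap2 (-0.38).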

How the data were processed

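Single HSCs were captured on Fluidigm C1 chips, full-length cDNA was amplified and 51-base single reads were sequenced. The authors aligned them with TopHat2 2.0.10 to mm10, keeping 1 alignment per read, used rpkmforgenes for counting on RefSeq gene models, and deposited unnormalized read counts. Counting is not stated to use strand. The 114 cells that passed the study's limits (273236 to 5688706 counted reads) were used, and all 135 beside them.

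Counts were divided by the sum of their cell to give CPM, and levels were taken as log2(CPM + 1). With 1 mouse per age no test between ages was made. Intervals are 95% Clopper-Pearson. The members and the 14 lists of genes were chosen with earlier results of these data known. Named are the members, the 10 genes with the highest and 3 with the lowest r with the class II score in old cells, up to 4 genes of each list by level, and markers expressed in cells with 3 or more class II genes. Shared 51-base windows came from GENCODE M21 transcripts (GRCm38) and promoters from RefSeq (GRCm38.p6). Alternatives covered the cells used, depth, pseudocount, scaling (edgeR 4.0.16 and DESeq2 1.42.0 factors), summed CPM and the limit for an expressing cell. The steps were tested on simulated counts. Software was R 4.3.3 and Python 3.11.15, with scipy 1.17.1, numpy 2.4.6 and pandas 2.3.3.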

Additional observations from a re-analysis of the deposited data

How the results depend on the processing

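Of 127 recomputed values 105 were the same within the limits set (1.5 times for levels, the 95% interval for shares, 0.1 for r) and 22 moved. The number of genes at least 2-fold higher in old cells was 6 of 7 under each of the 8 alternatives run for it. The median difference over the 7 genes, 2.61, was 4.26 with a pseudocount of 0.1 CPM. The median r of the 6 class II genes in young cells, 0.11, was -0.012 after thinning to 250000 reads. The share of old cells with H2-Aa, H2-Ab1 and Cd74 together, 43.5%, was 66.1% where 1 read counted as expression and 30.6% with a limit above 4. The class II score of old cells with Ciita minus that of those without, 1.45, was 0.68 in cells with at least 1000000 reads, 0.50 after thinning, 0.63 where 1 read counted, 0.60 above 4 and 0.60 at 10 reads. This last limit was added after the data had been seen, as was leaving out the highest cell of each age, with which the log2 ratio of summed CPM was 4.75 for H2-Aa, 3.29 for H2-Ab1, 9.49 for H2-Eb1 and 0.54 for H2-DMa. The value of 1.45 rested on 3 old cells with Ciita. They were 2 among cells with at least 1000000 reads, 4 after thinning, 9 where 1 read counted, 2 above 4 and 2 at 10 reads. Without the highest young cell 16 young H2-Eb1 reads remained. The cause of the moves was not tested beyond these counts. No paired analysis was possible because the well names shared by the ages are chip positions, each age is 1 mouse and no test was made.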

Other observations

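Procr, the gene of the endothelial protein C receptor that marks HSCs, stood at place 12 of the 9064 genes ranked by their likeness to the class II score in old cells, with r = 0.42, and it was singled out after its values were seen. Over young cells its r was 0.06. Its mean level was 1.51 in young and 2.41 in old cells, and it was expressed in 11 and 24 of them. In the other lists, 7 of 15 megakaryocyte and platelet genes were at least 2-fold higher in old cells and 0 lower. Their median difference was 0.85. Of 15 cell cycle genes 10 were at least 2-fold lower and 0 higher, with a median of -1.14. Over all genes 3.91% were at least 2-fold higher and 4.49% lower. From these data the paper named Clu, Selp, Sdpr, Itgb3, Fhl1 and Tgm2 as higher in old cells. It named Ccna2, Ccnb1, Cdk1 and Cdc25c as more often expressed in young cells. Both lists hold such genes, so their counts were partly fixed in advance and are no separate support. The mean levels of these lists had r = 0.09 and -0.06 with the class II score over old cells, and -0.24 and 0.18 over young cells.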
